A study of Mus musculus with 4 samples.

Results

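*Setd5* and 8 genes encoding subunits of the HDAC3-NCoR and PAF1 complexes, which its protein is known to bind, were followed in single-cell (sc) RNA-Seq of the fetal mouse cortex. The 9 genes were chosen by name from the 16600 genes of the deposited table, and every one of them was present. They are *Setd5* itself, 4 members of the HDAC3-NCoR complex (*Hdac3*, *Ncor1*, *Tbl1xr1* and *Gps2*) and 4 members of the PAF1 complex (*Paf1*, *Ctr9*, *Cdc73* and *Leo1*).

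The libraries came from C57BL/6J fetuses at E18.5, 2 of them *Setd5* +/+ (libraries WT3 and WT6) and 2 *Setd5* +/- (Het5 and Het9), the latter heterozygous for the *Setd5* GFP knockout allele, for which no Cre driver is named. Cortical cells that carried CD24, a surface protein of neurons, and lacked CD45, a surface protein of blood cells, were sorted and put through a droplet kit that tags transcripts near their 3′ end. The table held 6562 cells, 1445 to 1954 per library, with median depths of 5398 to 5997 unique molecular identifiers (UMIs, tags that let each captured molecule be counted once) per cell. Each value below is the mean, over the cells of a library, of a gene's UMIs per 10000 UMIs of the cell, and the replicate is the library.

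SETD5 belongs to the SET domain family, whose members include many histone methyltransferases, and loss of 1 copy of the human gene causes intellectual disability with autism. The HDAC3-NCoR complex removes acetyl groups from histones at genes that it is brought to and so represses them. The PAF1 complex travels with RNA polymerase II, helps it through the body of a gene and is needed for histone marks of active transcription.

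Cells were assigned to 16 classes by ordered marker gates, which placed 6458 of the 6562 cells. Of these, 9 neural classes with at least 20 cells in every library carry the results. Radial glia-like cells (262 cells) carry markers of radial glia, the stem cells of the cortical wall. Intermediate progenitor-like cells (1520 cells) carry those of their *Eomes*-positive offspring. Cycling cells were split by markers of the *Dlx* lineage, which makes inhibitory neurons, into *Dlx*-positive (835 cells) and *Dlx*-low (475 cells). The gate for the latter had been meant for dorsal (pallial) progenitors, but *Emx1*, a dorsal marker, averaged 1.22 inside the class and 1.39 outside it and was higher inside in 0 of 4 libraries, so it is named by its rule only. Migrating interneuron-like cells (442 cells) and other *Dlx*-positive cells (721 cells) make up the inhibitory neurons. Excitatory neurons fell into deep-layer-like (576 cells), migrating young (487 cells) and other excitatory neuron-like cells (700 cells). Of the markers held back to check the excitatory classes, *Mef2c* was lower inside the migrating young class (0.292 against 0.506) and higher there in 1 of 4 libraries.

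Features of the libraries that touch these genes were looked at first. *Xist*, expressed from the inactive X chromosome, averaged 20.6 and 21.5 in WT3 and WT6 against 0.152 and 0.31 in Het5 and Het9, and the Y-linked *Ddx3y* had 0 and 1 UMIs in the former against 525 and 394 in the latter. Sex and genotype therefore cannot be told apart in any comparison below. In addition, 224 cells carried 1 of 56 cell barcodes that occurred in all 4 libraries, and 204 of them fell among the 236 immune-like and melanocyte-like cells, with the others mostly among cycling *Dlx*-low cells (9) and cells of no class (8). Results are given without all cells whose barcode occurred in more than 1 library (277 cells) where that changes a call.

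*Setd5* (chromosome 6, 113077365 to 113153435, plus strand, GRCm38) averaged 1.18 in WT3 (950 UMIs) and 1.07 in WT6 (1268 UMIs). It averaged 0.54 in Het5 (577 UMIs) and 0.586 in Het9 (483 UMIs). The genotypes did not overlap, with Het5 and Het9 the lower pair at a mean equal to 49.9% of that of WT3 and WT6 (log2 difference -0.89, SE 0.0752, 95% interval -1.07 to -0.71, adjusted p = 0.00696 from limma). The test called 7 of 8137 genes (0.086%), namely *Setd5*, *Isl1*, *Xist*, its antisense partner *Tsix* and the Y-linked *Kdm5d*, *Eif2s3y* and *Ddx3y*, and 1 of the 9 genes under study is thus among the calls. With 2 libraries against 2, the exact two-sided permutation test cannot go below p = 0.333. Without the cells whose barcode occurred in several libraries the *Setd5* difference was -0.92. The number of genes called was 13 without WT3 and 41 without Het5, and *Setd5* was among them each time.

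None of the 8 partner genes was called between genotypes by limma, with 0 of the 8 at an unadjusted p under 0.05. Within the HDAC3-NCoR complex, *Hdac3*, the deacetylase itself, averaged 0.928 in both WT3 and WT6, 0.938 in Het5 and 0.935 in Het9. *Ncor1*, the scaffold that binds transcription factors and activates HDAC3, averaged 2.49 and 3.07 in the *Setd5* +/+ libraries against 2.82 and 3.06 in the *Setd5* +/- libraries. The 4 *Hdac3* levels spanned a range of 0.928 to 0.938, whereas for *Ncor1* WT3 stood lowest and the genotypes overlapped.

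*Tbl1xr1*, a WD-repeat subunit that exchanges corepressors for coactivators, averaged 0.257 and 0.249 in WT3 and WT6, and 0.261 (Het5) and 0.281 (Het9) in the *Setd5* +/- pair. *Gps2*, a subunit that bridges NCoR and TBL1 proteins, averaged 0.817 and 0.764 in WT3 and WT6, and 0.744 (Het5) and 0.704 (Het9) in the *Setd5* +/- pair. The genotypes did not overlap for 3 of the 8 partners, *Tbl1xr1* and *Hdac3* (higher in the *Setd5* +/- libraries, though *Hdac3* differed by -0.02 with thinned cells) and *Gps2* (lower), beside 32% of all 8137 genes. For *Tbl1xr1* and *Gps2* the differences were small (log2 0.07 and -0.11) and their 95% intervals, -0.11 to 0.25 and -0.27 to 0.05, included 0.

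For the PAF1 complex, *Paf1* averaged 0.272 and 0.265 in WT3 and WT6, and 0.23 (Het5) and 0.28 (Het9) in the *Setd5* +/- pair. *Ctr9*, the largest subunit and scaffold, averaged 0.698 and 0.634 against 0.644 and 0.679. The genotypes overlapped for both of these genes, as they did for the remaining pair. *Cdc73*, the tumor suppressor parafibromin, averaged 0.286 and 0.294 in WT3 and WT6, and 0.298 (Het5) and 0.253 (Het9) in the *Setd5* +/- pair. *Leo1* averaged 0.383 and 0.402 in WT3 and WT6, and 0.372 (Het5) and 0.391 (Het9) in the *Setd5* +/- pair.

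**Figure D1:**
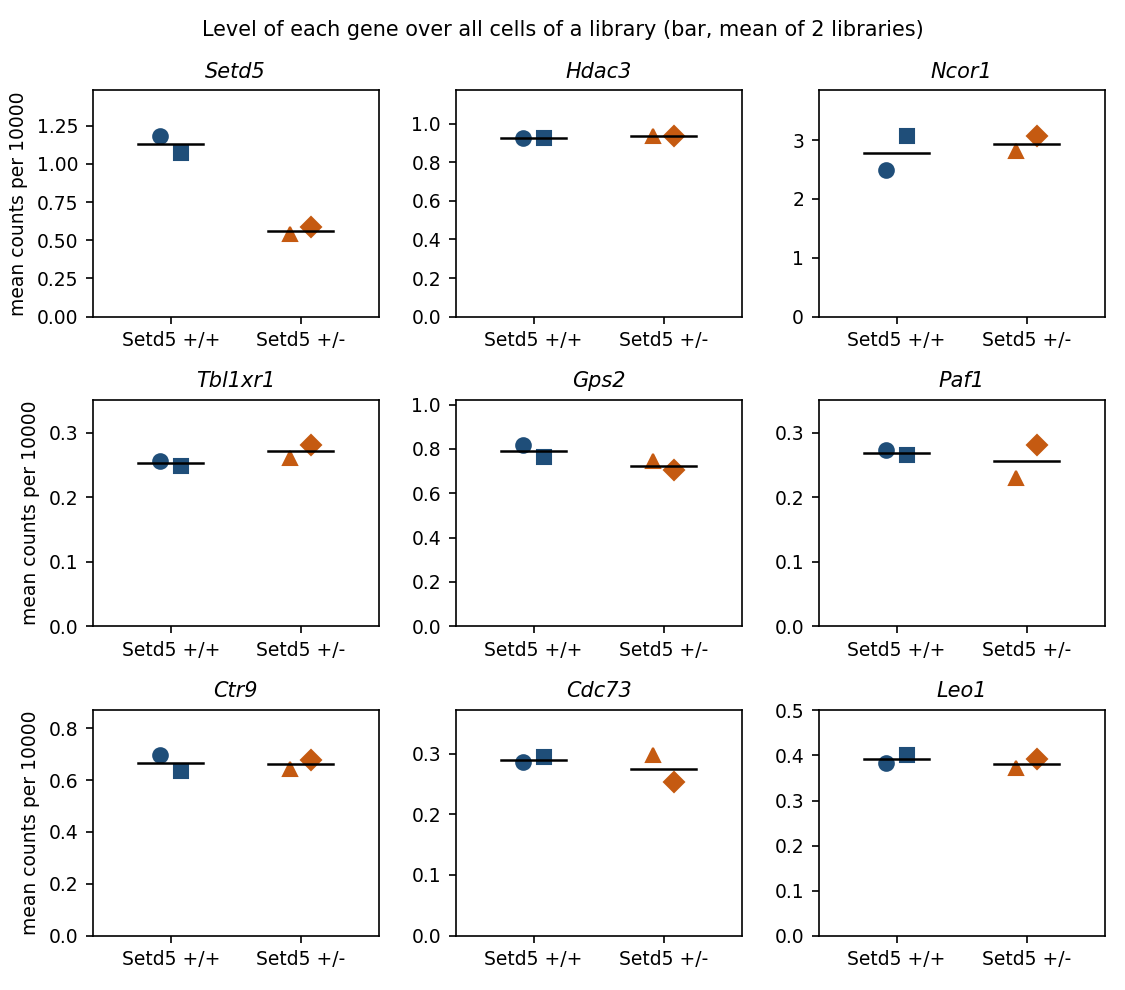
Mean counts per 10000 UMIs over all cells of a library (vertical axes, each starting at 0) for the 9 genes, with 1 point per library and a bar at the mean of the 2 libraries of a genotype. *Setd5* fell to 49.9% of its *Setd5* +/+ mean, and the *Setd5* +/- means of the partners lay between 91.6% (*Gps2*) and 107% (*Tbl1xr1*) of theirs.

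The intervals bound what these libraries could show. Over the 8 partners the 95% intervals of the log2 difference ran from -0.27 (*Gps2*, *Paf1*) to 0.31 (*Ncor1*), and none reached the interval of *Setd5*. The median difference of the 4 HDAC3-NCoR members was 0.042 and that of the 4 PAF1 members -0.044, beside a median of -0.002 over all genes tested. The lowest adjusted p among the partners was 0.994. Further subunits of these complexes gave the same picture. *Rtf1*, which links the PAF1 complex to ubiquitination of histone H2B, differed by -0.02 and *Wdr61*, shared with the Ski complex, by 0.01. *Tbl1x*, the X-linked paralog of *Tbl1xr1*, differed by 0.07. *Coro2a* had 32 UMIs in all and was not tested.

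**Figure D2:**
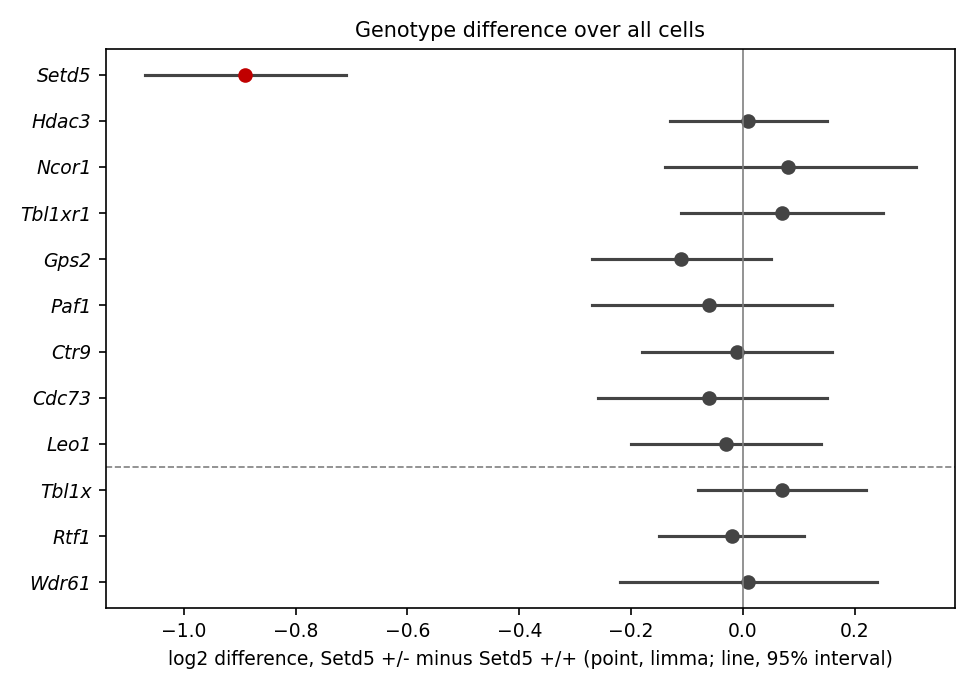
Log2 difference between genotypes over all cells (horizontal axis, *Setd5* +/- minus *Setd5* +/+), with the limma estimate as a point, red where the adjusted p is under 0.05, and its 95% interval as a line. The interval of *Setd5* runs from -1.07 to -0.71 and those of the other genes shown all include 0.

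Related regulators were counted in the same way from 4 further lists. None of 6 other class I and IIa histone deacetylases passed the test (differences of -0.08 to 0.13), none of 17 Sin3, CoREST and NuRD corepressor subunits, none of 4 transcription factors that recruit NCoR and none of 27 genes of transcription elongation and PAF1-dependent histone marks. The medians were 0.064, -0.002, 0.078 and -0.025, and 0, 2, 0 and 2 genes had an unadjusted p under 0.05, beside 4.34% of all genes. The largest of these differences was that of *Rcor2*, a CoREST subunit named after its value was seen, at 0.29 (adjusted p = 0.994), with levels of 1.41 and 1.74 in WT3 and WT6, and 1.88 (Het5) and 1.99 (Het9) in the *Setd5* +/- pair. The 4 *Rcor2* levels did not overlap between genotypes.

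The neighborhood of *Setd5* was examined because the modified allele lies in it. Of the 20 genes that start nearest to it (10 on either side), 12 were in the table, 9 were tested and 0 were called by limma, with 2 at an unadjusted p under 0.05 (4.34% of all genes), which are named here for that reason. *Gt(ROSA)26Sor*, a noncoding RNA gene that ends at 113077244, just before the start of *Setd5*, averaged 0.246 and 0.297 in WT3 and WT6, and 0.377 (Het5) and 0.399 (Het9) in the *Setd5* +/- pair. Both *Setd5* +/- libraries were above both *Setd5* +/+ libraries for this gene, opposite in direction to *Setd5*, with a log2 difference of 0.39 that did not pass the adjustment (unadjusted p = 0.00295, adjusted p = 0.615, limma). *Camk1*, downstream of *Setd5*, likewise did not overlap (0.345 and 0.346 against 0.433 and 0.414, adjusted p = 0.986). The other 7 tested neighbors differed by -0.04 to 0.12.

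Within the neural classes the *Setd5* +/- level of *Setd5* ranged from 44.1% of the *Setd5* +/+ level in intermediate progenitor-like cells to 54.5% in migrating interneuron-like cells, and both *Setd5* +/- libraries were below both *Setd5* +/+ libraries in 9 of 9 classes, beside 16.9% of all 70053 pairs of a gene and a class. Among progenitors, it averaged 1.26 and 1.22 in the intermediate progenitor-like cells of WT3 and WT6 and 0.521 and 0.574 in those of Het5 and Het9 (log2 difference -1.05, SE 0.101). In radial glia-like cells the levels were 1.42, 1.07, 0.70 and 0.528, in the same order of libraries. The 2 *Setd5* +/+ libraries were closest together in intermediate progenitor-like cells and farther apart in radial glia-like cells, which rest on 17 to 72 *Setd5* UMIs per library.

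Cycling *Dlx*-positive cells averaged 1.29 and 1.19 in WT3 and WT6, and 0.626 (Het5) and 0.685 (Het9) in the *Setd5* +/- pair. Cycling *Dlx*-low cells averaged 1.38 and 1.08 against 0.456 and 0.66. In both cycling classes the genotypes were apart, by log2 differences of -0.83 and -1.02. Migrating interneuron-like cells averaged 1.25 and 1.1 in WT3 and WT6, and 0.581 (Het5) and 0.698 (Het9) in the *Setd5* +/- pair, and other *Dlx*-positive cells 0.922 and 1.1 against 0.467 and 0.566. WT3 was thus the higher *Setd5* +/+ library in every neural class except the other *Dlx*-positive cells.

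Of the excitatory classes, deep-layer-like cells averaged 1.09 and 0.822 in WT3 and WT6, and 0.555 (Het5) and 0.392 (Het9) in the *Setd5* +/- pair. Migrating young excitatory neuron-like cells averaged 1.18 and 1.04 against 0.51 and 0.653, and other excitatory neuron-like cells 1.14 and 0.864 against 0.411 and 0.534. Over the 9 neural classes, the lowest *Setd5* +/+ level, 0.822, lay above the highest *Setd5* +/- level, 0.70.

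After adjustment over all genes of a class, limma called *Setd5* in 3 of the 9 classes. These were intermediate progenitor-like cells (adjusted p = 0.000157, with 0.104% of genes called), cycling *Dlx*-positive cells (adjusted p = 0.015, with 0.0936% called) and other excitatory neuron-like cells (adjusted p = 0.0194, with 0.129% called). The unadjusted p was under 0.05 in all 9. In the remaining classes, where *Setd5* was not called, the genes called made up 0.123% (cycling *Dlx*-low), 0.0909% (migrating interneuron-like), 0.104% (other *Dlx*-positive), 0.073% (radial glia-like), 0.0783% (deep-layer-like) and 0.0648% (migrating young). Without WT3 the call was kept in 1 class, intermediate progenitor-like cells, and without cells sharing a barcode it was gained in cycling *Dlx*-low cells (-1.05, adjusted p = 0.0143). Without WT6 the call in cycling *Dlx*-positive cells was lost (adjusted p = 0.645), as was that in other excitatory neuron-like cells without Het5 (adjusted p = 0.999) or Het9 (adjusted p = 0.26) or with summed UMIs (adjusted p = 0.0624). Calls were also gained in cycling *Dlx*-low cells without WT6, Het5 or Het9 (adjusted p = 0.0299, 0.0402 and 0.000104), in other *Dlx*-positive cells without Het9 (0.0486) and in deep-layer-like cells without Het5 (0.000351). With summed UMIs they were gained in these same classes (0.0258, 0.0378 and 0.0272, in that order), and with 1 more marker in each gate in the former pair (0.0311 and 0.0195).

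A call in one class and not in another does not show that the classes differ, so the difference in the genotype effect between each class and all other cells of the same libraries was tested. It ran from -0.21 (intermediate progenitor-like cells, 95% interval -0.48 to 0.06) to 0.11 (migrating interneuron-like cells, -0.43 to 0.65) for *Setd5*. The lowest unadjusted p was 0.108. Across the 9 classes, the *Setd5* +/+ and *Setd5* +/- levels of *Setd5* on the log2 scale had a correlation of r = 0.809 (n = 9 classes, which share their libraries).

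**Figure D3:**
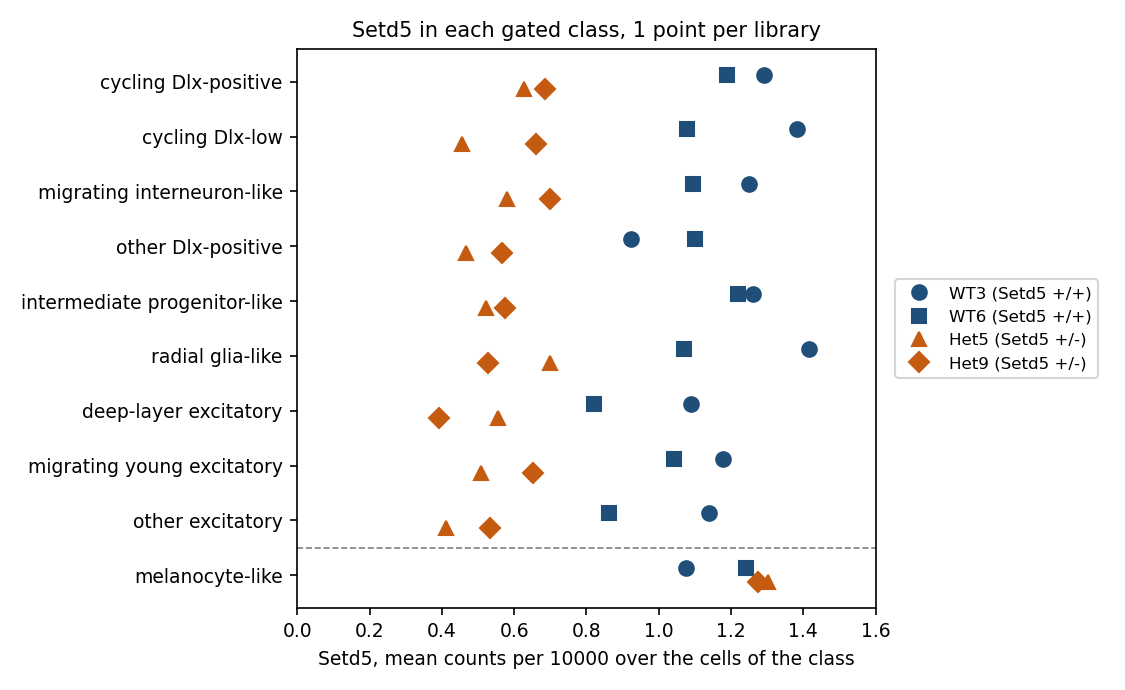
Mean *Setd5* counts per 10000 UMIs (horizontal axis) in the 9 neural classes and, under the dashed line, in melanocyte-like cells, with 1 point per library. In each neural class the *Setd5* +/- points (orange) lie left of the *Setd5* +/+ points (blue), from 0.392 to 0.70 against 0.822 to 1.42, whereas the melanocyte-like points lie between 1.08 and 1.3.

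Melanocyte-like cells, defined by pigment genes such as *Dct* and *Pmel*, gave another picture. *Setd5* averaged 1.08 and 1.24 in WT3 and WT6 (21 and 24 UMIs) and 1.3 and 1.27 in Het5 and Het9 (26 and 22 UMIs). Both *Setd5* +/- libraries were above both *Setd5* +/+ libraries (log2 difference 0.14, 95% interval -0.40 to 0.69), and the limma test called 0 of 7152 genes in this class (0%), with 332 at an unadjusted p under 0.05. The class held 133 cells, 127 of which carried a barcode present in all 4 libraries, and in these melanocyte-like cells *Ddx3y* had 1 UMI in Het5 and 0 in Het9. Their *Xist* UMIs numbered 1, 1, 2 and 1 in WT3, WT6, Het5 and Het9. The part of the shared barcodes in this result was not tested, and the interval may not measure a spread between separate fetuses.

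The partner genes showed no call in any neural class. Of 72 pairs of a partner and a class, 0 were called and 2 had an unadjusted p under 0.05 (2.78%, beside 4.82% of all pairs of a gene and a class). Both *Setd5* +/- libraries were below both *Setd5* +/+ libraries in 9 of the 72 pairs (12.5%, beside 16.9% of all such pairs) and above in 13 (18.1%, beside 16.5%), shares near those of all genes. The pair with the widest difference was *Leo1* in radial glia-like cells, at 0.132 and 0.20 in WT3 and WT6, and 0.336 (Het5) and 0.395 (Het9) in the *Setd5* +/- pair. These levels rest on 3 to 18 UMIs per library, and the log2 difference of 0.82 (95% interval 0.09 to 1.55) had an adjusted p of 0.953. The other was *Gps2* in deep-layer-like cells, lower by -0.40 (adjusted p = 0.981).

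Levels of a gene were next compared between the classes, within each gene. *Setd5* was nearly even over the *Setd5* +/+ neural classes, from 1.24 in radial glia-like cells to 0.956 in deep-layer-like cells. The order of levels placed the 3 other progenitor classes next to radial glia-like cells (1.24, 1.24 and 1.23) and then migrating interneuron-like cells (1.17), migrating young excitatory neuron-like cells (1.11), other *Dlx*-positive cells (1.01) and other excitatory neuron-like cells (1.001). The ranges of the 2 libraries overlapped for 8 of 8 neighbors in this order. The genes whose *Setd5* +/+ profile over the 9 classes was most like that of *Setd5*, among 3185 genes with a level of at least 0.5, were *Ppp1r35* (r = 0.933), *Lage3* (0.884), *Smndc1* (0.879), *Ndufb11* (0.878) and *Znrd1* (0.872). Over the *Setd5* +/- classes, which did not choose them, the same genes had r = 0.461 to 0.661 with *Setd5*. Its 8 partners had r with *Setd5* from -0.595 (*Ctr9*) to 0.492 (*Cdc73*) over the *Setd5* +/+ classes and from -0.321 (*Paf1*) to 0.804 (*Hdac3*) over the *Setd5* +/- classes, and for *Tbl1xr1* (-0.406 and 0.377) and *Leo1* (-0.195 and 0.0535) the sign differed between them. All of these describe 9 classes that share libraries and depth.

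*Hdac3* and *Gps2* were also spread evenly, with the highest class at 1.13 (cycling *Dlx*-low) and 0.962 (cycling *Dlx*-positive) and the lowest, other excitatory neuron-like cells for both, at 0.887 and 0.659, as means of 4 libraries. Their class profiles had r = 0.718 with each other. The partners with the widest spread were *Tbl1xr1*, 2.66 times higher in its highest than in its lowest class, *Leo1* (2.08 times), *Ctr9* (1.99 times), *Cdc73* (1.82 times) and *Paf1* (1.81 times). *Paf1*, *Ctr9* and *Leo1* were all lowest in radial glia-like cells, where *Cdc73* was highest.

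**Figure D4:**
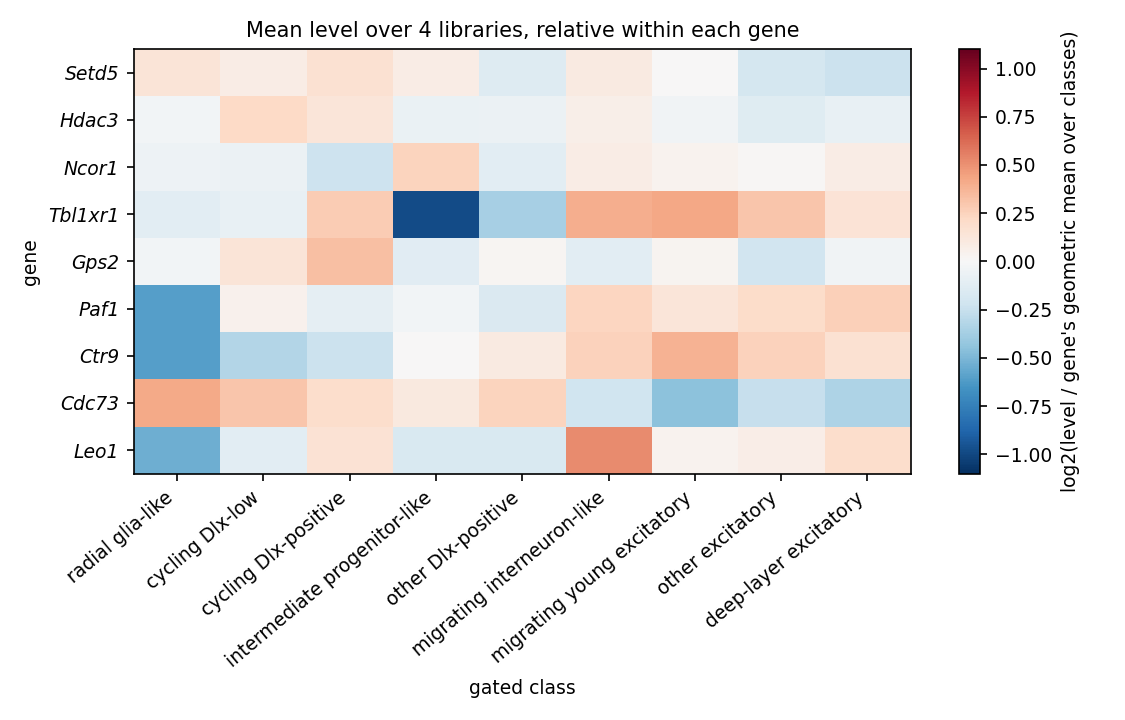
Mean level of each gene (rows) in each neural class (columns) over 4 libraries, as log2 relative to the geometric mean of that gene over the classes, from blue (lower) to red (higher). *Tbl1xr1* is lowest in intermediate progenitor-like cells (0.14), and in the radial glia-like column *Paf1*, *Ctr9* and *Leo1* are at their lowest (0.171, 0.44 and 0.266) and *Cdc73* at its highest (0.373).

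Excitatory neuron-like cells of the 3 classes together were compared with radial glia-like cells of the same library. Of the 9 genes 3 were called, all of them higher in neurons and all of the PAF1 complex, while 49.4% of all 8219 genes tested were called. *Ctr9* averaged 0.423, 0.636, 0.465 and 0.238 in the radial glia-like cells of WT3, WT6, Het5 and Het9. In the excitatory neuron-like cells of those libraries it averaged 0.875, 0.80, 0.783 and 0.755. The neurons were higher in 4 of 4 libraries without overlap (log2 difference 0.79, adjusted p = 0.00759 from limma).

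*Paf1* averaged 0.131, 0.223, 0.127 and 0.204 in radial glia-like cells and 0.303, 0.305, 0.227 and 0.346 in excitatory neuron-like cells, in the same order of libraries. It was higher in neurons in 4 of 4 libraries and the ranges did not overlap, although its highest radial glia-like value, 0.223, came close to its lowest neuronal one, 0.227 (log2 difference 0.55, adjusted p = 0.00998). When cells were thinned to 3000 UMIs, with those under that depth left out, the difference was 0.28 and the call was lost (adjusted p = 0.236, limma). *Leo1* averaged 0.132, 0.20, 0.336 and 0.395 in radial glia-like cells and 0.399, 0.408, 0.383 and 0.448 in neurons (log2 difference 0.54, adjusted p = 0.0441). It was higher in neurons in 4 of 4 libraries, but the ranges overlapped, and the call was kept in 7 of 13 alternatives. It was lost with thinned cells (0.23, adjusted p = 0.31), without WT3 (0.35, adjusted p = 0.136) or WT6 (0.47, adjusted p = 0.155), with no filter (adjusted p = 0.104), with a pseudocount of 0.01 (0.72, adjusted p = 0.078) and with summed UMIs (0.49, adjusted p = 0.0713).

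*Cdc73* went the other way in 3 of 4 libraries, with 0.155, 0.41, 0.441 and 0.483 in radial glia-like cells and 0.219, 0.248, 0.257 and 0.168 in neurons. Its difference of -0.49 did not pass (adjusted p = 0.0918), and without WT3, the exception, it was -0.76 and passed (adjusted p = 0.00609), as it did with a pseudocount of 1 (-0.16, adjusted p = 0.0435) and with 1 more marker in each gate (-0.59, adjusted p = 0.0492). Without Het9 it shrank to -0.28 (adjusted p = 0.321). The radial glia-like levels rest on 31 UMIs of *Paf1*, 79 of *Ctr9*, 69 of *Cdc73* and 48 of *Leo1* over the 4 libraries. *Cdc73* overlaps *B3galt2* on the opposite strand, and the strand setting of the counting is not given in the sources used here, so reads of that gene could be among its counts. Over the 9 classes *Paf1* had r = 0.80 with *Ctr9* and 0.818 with *Leo1*, and *Cdc73* had r = -0.813, -0.885 and -0.675 with *Paf1*, *Ctr9* and *Leo1*.

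Of the remaining members, *Setd5* differed by -0.25, *Tbl1xr1* by 0.38, *Ncor1* by 0.10, *Hdac3* by -0.04 and *Gps2* by -0.03, and the difference of *Tbl1xr1* ranged from 0.24 without WT3 (adjusted p = 0.46) to 0.68 without Het5, where it passed (adjusted p = 0.0161). Of the subunits outside the 9 genes, *Rtf1* was higher in neurons (0.77), whereas *Tbl1x* (-0.98) and *Wdr61* (-0.58) were lower, and each of these passed the test. Among 28 genes of elongation and PAF1-dependent marks, 9 were higher and 2 lower, with a median of 0.11 beside 0.008 over all genes, of which 49.4% were called. Among 17 Sin3, CoREST and NuRD subunits 7 were higher and 3 lower, with a median of 0.286, against the same 49.4% of all genes.

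The bases before the starts of *Paf1* and *Leo1*, which rose together, and of *Cdc73*, which did not, are shown with those of *Tbl1xr1*, which stood apart in another class, from RefSeq on build GRCm38.p6. They are the 250 bases upstream of the RefSeq start, read 5′ to 3′ on the strand of the gene, and for *Paf1* the last 45 were left out because they lie inside the gene as GENCODE M21 annotates it. Capitals mark the GC box (GGGCGG, or CCGCCC on the other strand) and the CCAAT box (CCAAT, or ATTGG on the other strand). *Ctr9* has no entry. The positions are chr7:28392746-28392950 (plus strand) for *Paf1*, chr9:75441274-75441523 (plus strand) for *Leo1*, chr1:143702894-143703143 (minus strand) for *Cdc73* and chr3:22076402-22076651 (plus strand) for *Tbl1xr1*.
Paf1: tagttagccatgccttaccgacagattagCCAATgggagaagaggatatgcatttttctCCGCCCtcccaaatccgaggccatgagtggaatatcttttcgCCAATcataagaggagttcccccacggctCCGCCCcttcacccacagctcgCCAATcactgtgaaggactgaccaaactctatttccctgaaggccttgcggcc
Leo1: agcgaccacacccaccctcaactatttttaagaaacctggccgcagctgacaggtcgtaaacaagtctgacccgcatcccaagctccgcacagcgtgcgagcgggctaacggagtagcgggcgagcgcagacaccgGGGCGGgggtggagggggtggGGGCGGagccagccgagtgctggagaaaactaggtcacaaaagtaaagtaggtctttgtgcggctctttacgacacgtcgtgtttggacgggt
Cdc73: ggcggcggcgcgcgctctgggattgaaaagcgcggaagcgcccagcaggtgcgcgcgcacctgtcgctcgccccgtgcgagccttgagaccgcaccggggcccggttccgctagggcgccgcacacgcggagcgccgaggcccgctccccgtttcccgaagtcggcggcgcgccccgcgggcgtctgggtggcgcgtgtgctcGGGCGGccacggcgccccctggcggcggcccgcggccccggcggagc
Tbl1xr1: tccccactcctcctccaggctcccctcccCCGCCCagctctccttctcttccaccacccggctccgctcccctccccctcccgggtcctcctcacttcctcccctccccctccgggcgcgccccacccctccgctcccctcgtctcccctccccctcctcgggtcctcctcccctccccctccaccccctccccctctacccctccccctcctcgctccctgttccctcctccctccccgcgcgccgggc
All 4 windows held a GC box, 2 each for *Paf1* and *Leo1* and 1 each for *Cdc73* and *Tbl1xr1*, as did 32.7% of all 32851 promoter windows of 250 bases, the length over which motifs were counted for each gene. The CCAAT box occurred 3 times at *Paf1* and was in 33.8% of all windows. CpG pairs, counted over 250 bases, numbered 11 at *Paf1*, 21 at *Leo1*, 47 at *Cdc73* and 15 at *Tbl1xr1*, against a median of 6. The letters CCGGAAG (ETS, 6.91% of all windows), GCGCATGCG (NRF1, 1.45%), AAGATGG (YY1, 4.49%) and, for the TATA box, TATAAA (12.4%) were searched for on both strands and were in none of the 4. The matches describe letters only. For *Setd5* the RefSeq table holds a window that lies inside the gene, so it is not shown.

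*Dlx*-positive cells that were not cycling were compared with excitatory neuron-like cells, the inhibitory with the excitatory side of the cortex. None of the 9 genes was called by limma, beside 31.9% of 7831 genes, and 2 had an unadjusted p under 0.05. These were *Cdc73*, at 0.357, 0.247, 0.314 and 0.273 in the *Dlx*-positive cells of WT3, WT6, Het5 and Het9 against 0.219, 0.248, 0.257 and 0.168 in the excitatory ones (log2 difference 0.30, adjusted p = 0.0574), and *Tbl1xr1* (-0.23, lower in 4 of 4 libraries). *Cdc73* passed without WT6 (0.40, adjusted p = 0.0308), with summed UMIs (0.32, adjusted p = 0.0295) and with median centering (0.33, adjusted p = 0.0461), and was 0.23 without WT3 (adjusted p = 0.191). *Setd5* differed by 0.10, and it was higher in *Dlx*-positive cells in 3 of 4 libraries. Of the subunits outside the 9 genes, *Tbl1x* passed and was higher in *Dlx*-positive cells (0.40).

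Cycling *Dlx*-low cells were compared with the non-cycling progenitors, radial glia-like and intermediate progenitor-like cells together. Here 2 of the 9 genes were called, beside 43.7% of 8107 genes. *Tbl1xr1* averaged 0.182, 0.268, 0.243 and 0.359 in the cycling cells of WT3, WT6, Het5 and Het9 and 0.144, 0.168, 0.186 and 0.136 in the others (log2 difference 0.47, adjusted p = 0.0231). It was higher in cycling cells in 4 of 4 libraries, with ranges that overlapped. *Ncor1* averaged 2.24, 2.84, 2.71 and 3.08 in cycling cells and 3.09, 3.40, 3.25 and 3.43 in the others, lower in 4 of 4 libraries and without overlap (-0.28, adjusted p = 0.0458). The non-cycling group held 1520 intermediate progenitor-like and 262 radial glia-like cells. As means of 4 libraries, *Tbl1xr1* was 0.14 in the former, 0.257 in the latter and 0.263 in cycling cells. For *Ncor1* the means were 3.38, 2.74 and 2.72 in that order. Cycling cells were thus close to radial glia-like cells for both genes, and a difference from those cells alone was not tested.

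Both calls were near the threshold. That of *Ncor1* was kept in 5 of 13 alternatives. It was lost without any 1 of the libraries (adjusted p = 0.0518 to 0.14), without cells sharing a barcode (-0.26, adjusted p = 0.0569), with a pseudocount of 0.01 (adjusted p = 0.0706), with summed UMIs (0.0509) and with cells thinned to 3000 UMIs (0.204). That of *Tbl1xr1* was kept in 9 of 13, and lost without WT6 (0.48, adjusted p = 0.0681) or Het9 (0.31, adjusted p = 0.0542), with no filter (0.0696) and with thinned cells (0.116). *Hdac3* was higher in cycling cells in 3 of 4 libraries (1.29, 1.16, 1.1 and 0.971 against 0.903, 0.913, 0.91 and 0.982), with a difference of 0.26 that did not pass (adjusted p = 0.083). It passed without Het9, the exception (0.35, adjusted p = 0.0351), and with a pseudocount of 1 (0.14, adjusted p = 0.0199), and was 0.18 without WT3 (adjusted p = 0.247). *Ctr9*, at -0.23 over all libraries, ranged from -0.14 without WT6 (adjusted p = 0.542) to -0.40 without Het9, where it passed (adjusted p = 0.0288). *Setd5* differed by -0.02. Of the subunits outside the 9 genes, *Tbl1x* was higher (0.57) and *Rtf1* lower (-0.27) in cycling cells.

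*Tbl1xr1* was the only member with a class set apart from its neighbor in the order of levels. In intermediate progenitor-like cells it averaged 0.145, 0.151, 0.134 and 0.132 in WT3, WT6, Het5 and Het9 (139 UMIs in all), and in all other cells of those libraries 0.287, 0.277, 0.303 and 0.329. The class was lower in 4 of 4 libraries without overlap, at a mean of 0.14 ± 0.00919 (SD, n = 4) against 0.299 ± 0.023. A comparison added after these levels had been seen gave a log2 difference of -0.73 (adjusted p = 6.6e-05, limma, with 47.7% of 8019 genes called), which therefore describes the pattern and does not test it independently. *Ncor1*, its partner in the complex, went the other way, with 3.20, 3.51, 3.33 and 3.49 in intermediate progenitor-like cells against 2.3, 2.95, 2.65 and 2.92 (difference 0.32, adjusted p = 0.0018). Both kept their call in all 13 alternatives. *Ncor1* overlaps *Ttc19* and *Pigl* on the opposite strand, which carries the same uncertainty as for *Cdc73*.

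*Tbl1x*, like its paralog *Tbl1xr1*, was lower in intermediate progenitor-like cells (-0.48). In the comparison of neurons with radial glia-like cells, *Tbl1x* was lower (-0.98) and *Tbl1xr1* was not called (0.38). The members other than *Ncor1* and *Tbl1xr1* differed by -0.18 (*Leo1*) to 0.09 (*Cdc73*) in intermediate progenitor-like cells, and none of them was called. *Gps2*, at -0.13, ranged from -0.03 without Het5 (adjusted p = 0.822) to -0.25 without Het9, where it passed (adjusted p = 0.0405). How reads shared by *Tbl1x* and *Tbl1xr1* were counted is not given in the sources used here.

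**Figure D5:**
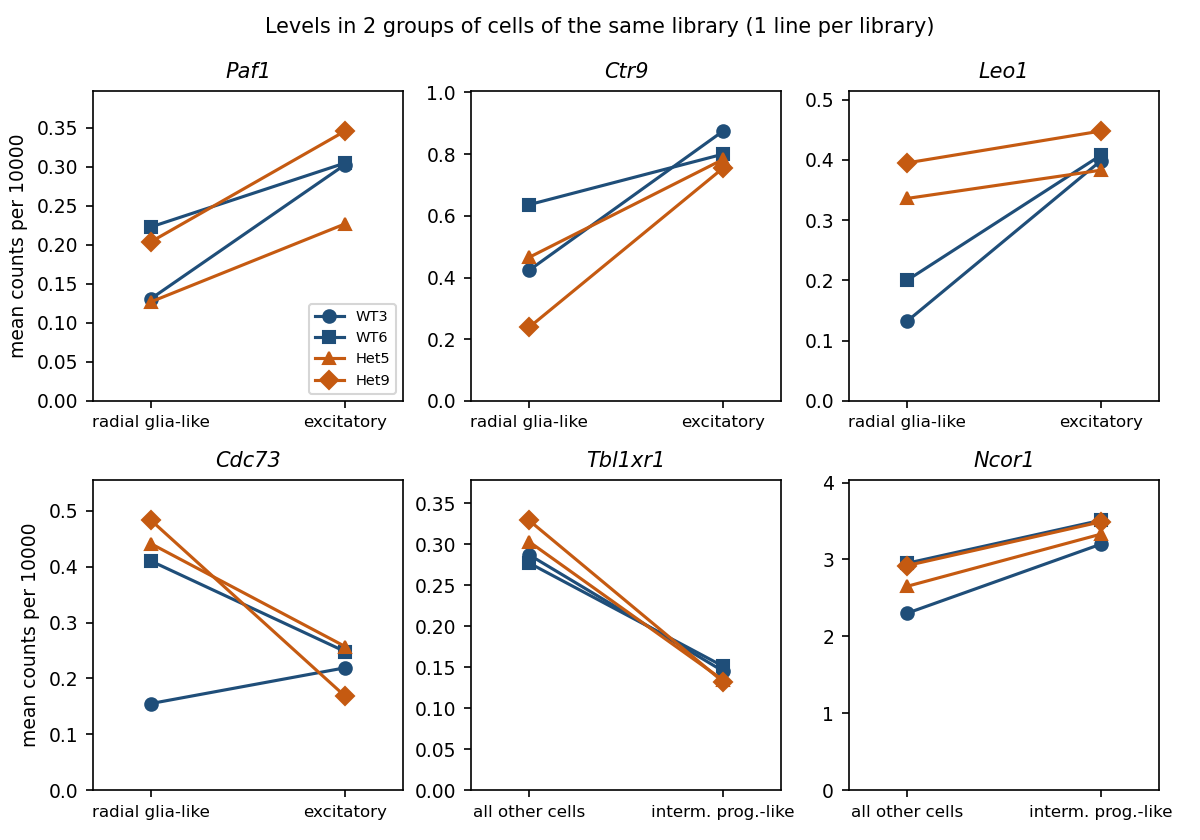
Mean counts per 10000 UMIs (vertical axes, each starting at 0) of 4 PAF1 members in radial glia-like and excitatory neuron-like cells, and of *Tbl1xr1* and *Ncor1* in all other cells and in intermediate progenitor-like cells, with 1 line per library (blue, *Setd5* +/+; orange, *Setd5* +/-). The lines of *Paf1*, *Ctr9*, *Leo1* and *Ncor1* rise and those of *Tbl1xr1* fall in 4 of 4 libraries, and the *Cdc73* line falls in 3 and rises in WT3.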

How the data were processed

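Single-cell RNA-Seq libraries of 2 *Setd5* +/+ and 2 *Setd5* +/- fetuses were analyzed. Tools named in the processing notes of the submitters are Cell Ranger 2.1 and Seurat 2.3.0, with build mm10. No annotation or strand setting is stated for the counting. The deposited values are the natural log of 1 plus counts per 10000 UMIs of a cell, as the authors normalized them. Whole UMIs were recovered for 100% of 14848520 values above 0 (tolerance 0.001). Cells held 1258 to 14996 UMIs and libraries 8205330 to 11742956. Library prefixes in the cell names gave the genotype, and 0 columns of other samples were present. A doublet caller marked 44 cells (0.671%), which were kept. Means per library were tested as log2(mean + 0.1) with limma 3.58.1 in R 4.3.3 (mean of at least 0.1, Benjamini-Hochberg adjustment over all genes, threshold 0.05), with the library as a block between classes. The genotype fit over all cells was tested on simulated data, with changes planted only in genes of higher level. The fits within and between classes were not tested in this way. Clustering was replaced by marker gates, scripted in Python 3.11.15. P-values measure the spread between libraries, and fold changes on this scale understate those of low genes. Alternatives were pseudocounts of 0.01 and 1, no filter, summed UMIs, median centering, thinning to 3000 UMIs, stricter gates, and leaving out doublets, cells sharing a barcode or each library. Thinning used the 6036 cells with at least 3000 UMIs and left out the others. Genes named were the 9 genes, other subunits of their complexes (1 is not reported here), called genes of the lists and of the neighbors of *Setd5*, the 5 genes most like *Setd5* over classes, sex genes and markers. *Rcor2*, *Gt(ROSA)26Sor* and *Camk1* fall outside this rule and were chosen after their values were seen. Members and lists were chosen with earlier results of these data known.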

Additional observations from a re-analysis of the deposited data

Results flagged for a closer look

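The *Setd5* difference between *Setd5* +/- and *Setd5* +/+ libraries in melanocyte-like cells stood apart from that in all other cells of the same libraries. The gap was a log2 difference of 1.07 (SE 0.296, 95% interval 0.35 to 1.79). The test of that difference in limma had an unadjusted p of 0.011 and an adjusted p of 0.897, with 0 of 7152 genes called and 373 at an unadjusted p under 0.05. Of the 133 melanocyte-like cells 127 carried a barcode present in all 4 libraries, so the libraries may not be independent for this class. The SE, interval and p-values may then not measure a spread between fetuses. In the 56 cells per library whose barcode occurred in all 4 libraries, *Setd5* averaged 0.722, 0.643, 0.836 and 0.627 in WT3, WT6, Het5 and Het9. *Xist* averaged 4.37, 3.82, 3.53 and 4.56 in those cells, with no gap between genotypes. In immune-like cells, 77 of whose 103 cells carried such a barcode, *Xist* averaged 11.7, 9.21, 9.48 and 11.6. Whether these cells came from the labelled fetus was not tested.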

How the results depend on the processing

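Over 13 alternatives, *Setd5* was called over all cells in 13 (-0.99 to -0.44, the latter with a pseudocount of 1) and in intermediate progenitor-like cells in 13, *Ctr9* between excitatory neuron-like and radial glia-like cells in 13, *Paf1* in 12 and *Leo1* in 7. Without 1 library at a time, the genes called between genotypes over all cells numbered 7 to 41, and the calls of the 9 genes within classes 1 to 4, against 5 with summed UMIs and 5 with 1 more marker in each gate. The genes called for cycling *Dlx*-low cells fell from 3541 to 1770 with cells thinned and those under the thinning depth left out. The causes were not tested. Differences that changed sign had not been called. Between genotypes these were *Hdac3* (-0.02) and *Ctr9* (0.05) when thinned, *Ctr9* and *Cdc73* with summed UMIs (0.02 each), and, leaving out libraries, *Ncor1* (-0.06 to 0.23), *Paf1* (-0.16 to 0.04), *Ctr9* (-0.07 to 0.05) and *Cdc73* (-0.15 to 0.03). For neurons against radial glia-like cells they were *Ncor1* when thinned (-0.05), and *Hdac3* (-0.12 to 0.05) and *Gps2* (-0.10 to 0.07, with 0.0008 without Het9) over libraries left out. For *Dlx*-positive cells they were *Leo1* with stricter gates (-0.01) and *Gps2* (-0.02 to 0.08 over libraries). For cycling *Dlx*-low cells they were *Setd5* with summed UMIs (0.0045) and stricter gates (0.0033), *Paf1* (-0.01) and *Cdc73* (-0.23) when thinned, and, over libraries, *Setd5* (-0.08 to 0.05), *Paf1* (-0.03 to 0.20) and *Leo1* (-0.05 to 0.23). For intermediate progenitor-like cells they were *Hdac3* when centered (0.01), *Ctr9* without cells sharing a barcode and with stricter gates (-0.01 each), and, over libraries, *Hdac3* (-0.03 to 0.01), *Paf1* (-0.12 to 0.02) and *Ctr9* (-0.05 to 0.07). The melanocyte-like class could not be fitted without cells sharing a barcode. No paired analysis was possible because the cell names carry no replicate number of the labels. Of the neural classes, radial glia-like cells were the fewest (262), with 31 UMIs of *Paf1* and 48 of *Leo1* over 4 libraries.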
